A study of Mus musculus with 13 samples.

Results

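Bulk RNA sequencing was compared between perivascular adipose tissue of mice that had received Nlrp3 knockout splenocytes and tissue of mice that had received splenocytes without the knockout. The comparison took in all 13 libraries of the series. Of these, 6 were on the knockout side: NS-R, from recipients of splenocytes of Nlrp3 KO mice (3 libraries), and NTS-R, from recipients of splenocytes of Nlrp3 KO mice with type 2 diabetes, T2DM (3 libraries). The other 7 were WTS-R, from recipients of WT splenocytes (3 libraries), and TS-R, from recipients of splenocytes of T2DM mice (4 libraries). All were labelled C57BL/6. The genotype label does not say whether it describes donor or recipient, so the groups follow the sample titles, and all 4 groups received splenocytes, with no group left without a transfer. The labels give no age, sex, batch or diabetes model, and nothing in them ties the libraries of a group to different animals, so p-values below measure only how far these samples spread. The knockout effect was the mean of its 2 single-state effects, NS-R minus WTS-R (without donor diabetes) and NTS-R minus TS-R (with donor diabetes), in 1 fit of 4 groups. Genes with the same sign in both states form the shared effect. Of 17270 genes tested, 6408 (37.1%) had it, 3054 higher and 3354 lower with the knockout.

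Nlrp3 encodes a cytosolic sensor that, once triggered, assembles with the adaptor Pycard (ASC) and caspase-1 into an inflammasome, which matures the cytokines IL-1 beta and IL-18 and cuts gasdermin D. It acts mainly in myeloid cells, which are among the cells of the spleen. Perivascular adipose tissue surrounds the vessel wall, holds brown-like adipocytes, stromal cells, nerves and immune cells, and releases factors that act on the smooth muscle of the vessel. In bulk tissue, fewer cells of a type and less RNA per cell cannot be told apart.

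Several libraries stood apart. Totals ran from 14216706 to 37011122 counts per library. A count of 0 allows up to 0.0786 to 0.242 CPM (3 counts; CPM is the usual scaling of counts to library size, here after TMM), a limit that covers counting error alone. NS-R replicates 1 and 2 carried airway transcripts: the club cell gene Scgb1a1 was at 2252 and 4689 CPM there and at 0.2566 CPM or lower in the other 11 libraries. TS-R replicates 2, 3 and 4 carried lymph node transcripts, with Glycam1 of high endothelial venules at 66.9, 965 and 8.11 CPM and no more than 0.1156 CPM elsewhere. Skeletal muscle transcripts marked TS-R replicate 1, where the fast myosin Myh4 was at 2733 CPM against 136.9 CPM or less in the others. Xist was expressed in 2 libraries, NS-R replicate 3 and TS-R replicate 3. The common biological coefficient of variation was 0.389.

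Nlrp3 itself was weakly expressed, and no difference with the knockout label passed the test. It was at a CPM of 0.642, 0.252 and 0.708 in WTS-R and 0.995, 0.462 and 1.57 in NS-R. With diabetes it was at a CPM of 0.455, 1.22, 2.94 and 1.10 in TS-R and 1.21, 0.534 and 0.403 in NTS-R. The libraries on both sides overlapped in each state, as the plot of Nlrp3 by library shows. The log2 fold change of Nlrp3 was 0.90 (SE 0.71) without diabetes and -0.97 (SE 0.66) with diabetes, and the mean of these was -0.03 (SE 0.50; edgeR FDR 0.996). An exact permutation test of log2(CPM + 0.5), two-sided and within states, gave a difference of -0.03 (p = 0.939; 700 assignments, smallest possible p 0.00143; 6 libraries against 7). The tissue was the recipient's, and which Nlrp3 exons the knockout removes is not given in the sources used here, so this level does not check the knockout in the transferred cells.

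No gene passed an FDR of 0.05 for the knockout effect in edgeR's quasi-likelihood test (0 of 17270, 0%). The lowest FDR was 0.476, for Car8. The same was true of each state alone (lowest FDR 0.204 without and 0.105 with diabetes) and of the difference between the states (lowest FDR 0.0823). Other fits called some: DESeq2 called 39 genes higher and 6 lower for the knockout effect, and edgeR called 87 higher without NS-R replicate 3, with the club cell gene Cyp2f2 first, 125 higher without both Xist-expressing libraries, and 1 lower without TS-R replicate 1. The genes below are therefore described by unadjusted p and by library, and none of their differences from edgeR passed the test. At an unadjusted p under 0.05, 550 genes (3.18%) were higher and 595 (3.45%) lower with the knockout. Of the higher genes, 463 (2.68% of all tested) had the same sign in both states, which is 84.2% of them. Of the lower genes, 295 (1.71% of all tested) did, which is 49.6% of them. Without diabetes 850 genes (4.92%) were higher and 67 (0.388%) lower at this p. With diabetes 966 (5.59%) were higher and 2428 (14.1%) lower. The difference between the states had an unadjusted p under 0.05 for 812 genes (4.7%) where it was positive and 2353 (13.6%) where it was negative.

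The 2 single-state effects share no library, and across genes they ran in opposite directions: Pearson's r was -0.42 and Spearman's rho -0.35 over the 17270 genes, which are not independent replicates. Only 27 genes (0.156%) were higher in both states at an unadjusted p under 0.05 in each, and 0 (0%) were lower in both. Leaving out single libraries gave from 10 (without WTS-R replicate 2) to 40 (without NS-R replicate 3) of the former and at most 4 of the latter. These 27 are 3.18% of the genes higher without diabetes and 2.8% of those higher with it. Far more, 200 genes (1.16%), were higher without and lower with diabetes, which is 23.5% of the genes higher without diabetes and 8.24% of those lower with it. Another 15 (0.0869%) went the opposite way. Counting libraries in place of p, 40 genes (0.232%) had every knockout library above every comparison library in both states, and 9 (0.0521%) had every one below. Libraries were apart in opposite directions for 236 genes (1.37%) that were higher without and lower with diabetes and for 177 (1.02%) with the reverse order. Scaled by library total in place of TMM, the log2 difference of every gene shifts by -0.13 for the mean effect, 0.03 without diabetes and -0.30 with diabetes, and these 4 counts become 7, 36, 411 and 20. Libraries called apart or without overlap below are so after TMM scaling. Scaled by library total, Cnn1, Acta2 and Actc1 overlap in both states. Pcp4l1, Nebl, Chmp4c, Angpt2, Dnah10, Ipo4 and Car13 then overlap with diabetes, and P2ry6 overlaps without diabetes.

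**Figure D1:**
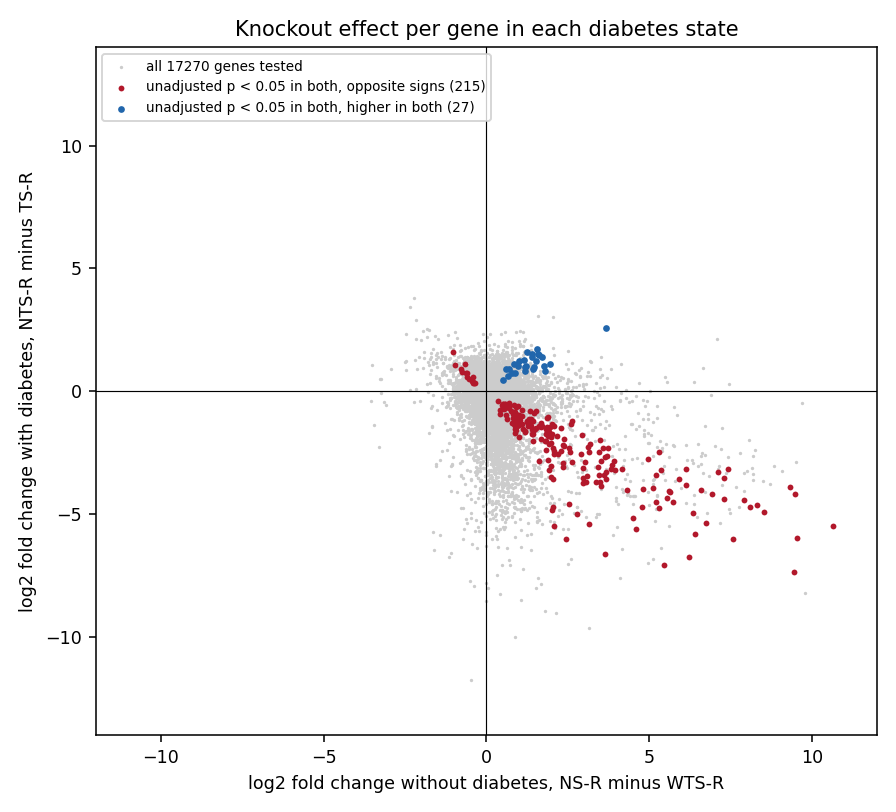
Log2 fold change of each of 17270 genes without diabetes (NS-R minus WTS-R, x axis) against that with diabetes (NTS-R minus TS-R, y axis), from edgeR. Of these, 1 gene lies outside the axes and is not seen. Blue points are the 27 genes higher in both states at an unadjusted p under 0.05 in each, red points are genes past that p in both with opposite signs, most of them in the lower right, and grey points are all genes.

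Genes of smooth muscle contraction were part of the shared effect. The list of 13 vascular smooth muscle genes had a median log2 fold change of 0.87, 1.06 without and 0.36 with diabetes, against -0.02, 0.01 and -0.03 over all genes tested. Without NS-R replicate 1 the value without diabetes was 0.54, and without TS-R replicate 1 that with diabetes was 0.73, which is to be read beside the shift of -0.30 that scaling by library total brings. Of its members 11 were higher in both states, 9 had an unadjusted p under 0.05 for the mean effect (3.18% of all genes did so in this direction) and 3 had it in both states (0.156% of all genes), and 0 were lower at that p. Those 3 were Cnn1, Acta2 and Actg2. Cnn1 encodes calponin, an actin-binding brake on the contraction of smooth muscle. Cnn1 was at a CPM of 8.28, 7.42 and 15.9 in WTS-R and 53.4, 52.4 and 16.7 in NS-R. In the diabetic state Cnn1 was at a CPM of 4.95, 8.41, 3.16 and 6.46 in TS-R and 10.8, 16.5 and 10.3 in NTS-R. No library overlapped in either state after TMM scaling, but NS-R replicate 3 was close to WTS-R replicate 3. Its mean log2 fold change was 1.54 (SE 0.32, edgeR FDR 0.726), 1.96 without and 1.13 with diabetes, and it was 0.92 without NS-R replicates 1 and 2, the airway-rich libraries.

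Acta2 encodes the actin of vascular smooth muscle. Acta2 was at a CPM of 80.2, 75.2 and 161.9 in WTS-R against 312, 239 and 165 in NS-R. With diabetes Acta2 was at a CPM of 59.2, 96.1, 42.0 and 81.0 in TS-R against 117.5, 138.6 and 113 in NTS-R, again with no overlap after TMM scaling. The mean log2 fold change of Acta2 was 1.0 (SE 0.25, edgeR FDR 0.726). Actg2, a related actin of visceral smooth muscle, gave 1.22 (SE 0.31), and its libraries overlapped without diabetes, where WTS-R replicate 3 had 16.1 CPM and NS-R replicate 3 had 15.2 CPM. Myl9, the regulatory light chain of smooth muscle myosin, was not on the list and gave 0.81 (SE 0.22), 0.87 without and 0.75 with diabetes.

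Other members of the list were higher mainly without diabetes. Myh11, the smooth muscle myosin heavy chain, was at a CPM of 45.9, 45.9 and 55.6 in WTS-R and 209, 93.0 and 108 in NS-R. In the diabetic state its libraries overlapped, at 51.4, 60.3, 40.2 and 49.3 in TS-R and 59.4, 67.9 and 54.9 in NTS-R. Myh11 had a log2 fold change of 1.48 (SE 0.28) without and 0.27 (SE 0.25) with diabetes, a difference of -1.20 (edgeR FDR 0.156). Mylk, the kinase that switches on smooth muscle myosin, gave 0.66 and 0.24, Lmod1, an actin filament nucleator, 1.41 and 0.25, and Kcnmb1, a subunit of the calcium-activated potassium channel, 3.18 and 0.62. The with-diabetes values of Myh11, Mylk and Lmod1 are smaller than the shift that scaling by library total brings.

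The level of the list was higher in every NS-R library than in the other groups after TMM scaling, but only narrowly in NS-R replicate 3. As the mean of log2(CPM + 0.5) over its members, it was 5.21, 4.52 and 4.20 in NS-R and 3.44, 3.43 and 4.07 in WTS-R. With diabetes it was 3.86, 4.18 and 4.13 in NTS-R and 3.64, 3.75, 2.96 and 3.61 in TS-R. The 2 highest levels belonged to the airway-rich libraries NS-R replicates 1 and 2, and the part of airway tissue in this result was not tested. Without those 2 libraries the median of the list was 0.61, 0.67 without diabetes on the 1 remaining NS-R library, whose spread is taken to equal that of the other groups, and 6 members had an unadjusted p under 0.05.

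The promoters of the 27 genes were searched on both strands for the CArG box, the site of serum response factor, which is known to drive smooth and cardiac muscle genes together with its coactivator myocardin. RefSeq promoters (GRCm38.p6, 250 bases before to 50 after a start) were at hand for 15 of the 27 genes, 22 promoters in all. A match was found in 3 of these promoters, those of Myl9, Fbxl22 and 1 of 4 starts of Nebl, and in 535 of all 32851 promoters (1.63%). The Myl9 and Fbxl22 windows are shown with the match in capitals, beside that of Acta2, which holds no exact match in these bases. Fbxl22 encodes an F-box protein of muscle. Myl9 lies at chr2:156775214-156775513 (plus strand), Fbxl22 at chr9:66514544-66514843 (minus strand) and Acta2 at chr19:34255324-34255623 (minus strand), each printed 5′ to 3′ along the gene.
Myl9: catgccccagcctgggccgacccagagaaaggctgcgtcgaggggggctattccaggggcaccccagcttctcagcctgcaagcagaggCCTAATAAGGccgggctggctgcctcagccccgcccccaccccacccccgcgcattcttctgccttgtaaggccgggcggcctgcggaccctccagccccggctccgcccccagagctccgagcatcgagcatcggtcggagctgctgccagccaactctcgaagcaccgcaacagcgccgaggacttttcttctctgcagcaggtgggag
Fbxl22: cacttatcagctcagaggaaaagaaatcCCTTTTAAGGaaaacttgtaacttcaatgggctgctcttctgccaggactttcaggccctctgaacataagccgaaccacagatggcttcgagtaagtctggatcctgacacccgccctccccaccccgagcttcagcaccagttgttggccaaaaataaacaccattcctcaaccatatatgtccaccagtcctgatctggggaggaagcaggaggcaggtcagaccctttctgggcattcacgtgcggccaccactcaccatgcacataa
Acta2: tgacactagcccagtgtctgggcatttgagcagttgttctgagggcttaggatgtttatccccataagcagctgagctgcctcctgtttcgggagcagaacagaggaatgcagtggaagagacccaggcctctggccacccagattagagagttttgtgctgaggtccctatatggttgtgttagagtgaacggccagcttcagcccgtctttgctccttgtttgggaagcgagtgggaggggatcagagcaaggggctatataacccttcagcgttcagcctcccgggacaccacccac
A match is a description of the sequence. The myocardin gene Myocd was itself at low level, with a mean log2 fold change of 1.17 (SE 0.44, edgeR FDR 0.726), 0.87 without and 1.48 with diabetes.

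Cardiac muscle genes were higher with the knockout in both states, all 13 of 13 members of the list, which shares Pln with the smooth muscle list. The median log2 fold change was 1.02, 0.58 without diabetes (0.39 without WTS-R replicate 2) and 1.44 with diabetes (0.95 without NTS-R replicate 3). At an unadjusted p under 0.05, 10 members were higher for the mean effect, 0 without diabetes and 11 with it, against 3.18%, 4.92% and 5.59% of all genes. Actc1, the cardiac actin, was the only member whose libraries were apart in both states after TMM scaling. Actc1 was at a CPM of 194, 195 and 291 in WTS-R and 349, 312 and 320.5 in NS-R. With diabetes Actc1 was at a CPM of 168, 202, 45.0 and 177 in TS-R and 358, 219 and 706 in NTS-R. TS-R replicate 3 was the lowest of the 13 libraries and NTS-R replicate 3 the highest. The mean log2 fold change of Actc1 was 1.03 (SE 0.34, edgeR FDR 0.726).

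The same 2 libraries held the ends of the range for the cardiac list as a whole. Its level was 3.52 in TS-R replicate 3 and 7.10 in NTS-R replicate 3, and from 5.15 to 6.36 in the other 11 libraries. Ryr2, the calcium release channel of the heart, gave a mean of 1.41 (SE 0.38). Pln, the phospholamban that restrains the calcium pump, gave 0.58 without and 2.40 with diabetes, and Sln, its relative sarcolipin, 0.12 and 1.70. Pln reached 86.3 CPM in NTS-R replicate 3, and the other 12 libraries ran from 3.25 to 24.5 CPM. The mean of Pln was 1.49, and 0.91 without that library. Among the sarcomere genes, Tnni3 (troponin I) gave a mean of 1.03, Tnnt2 (troponin T) 1.14, Myl7 (the atrial light chain) 0.86 and Myh6 (the fast cardiac myosin) 1.02. Without NTS-R replicate 3 the median of the list was 0.77 and 7 members had an unadjusted p under 0.05. Without TS-R replicate 3 it was 0.87 with 10 members. For skeletal muscle the median of the 14 genes tested was -0.83, with 0 at an unadjusted p under 0.05 in either direction. That median turned to 1.73 without WTS-R replicate 3 and to 0.26 without TS-R replicate 1, and was -1.59 without NS-R replicate 1. The part of cardiac tissue in these libraries in the result was not tested.

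Several of the 27 genes outside these lists are also known from striated or atrial muscle. Nebl encodes nebulette of the cardiac Z-disc. Nebl was at a CPM of 4.81, 4.40 and 5.66 in WTS-R and 13.3, 7.56 and 12.1 in NS-R. With diabetes Nebl was at a CPM of 5.20, 6.88, 5.65 and 6.28 in TS-R and 9.42, 7.55 and 27.0 in NTS-R. The groups were apart in both states, and the mean log2 fold change was 1.22 (SE 0.28, edgeR FDR 0.726). Dsp, desmoplakin of the desmosome, was at a CPM of 8.72, 11.4 and 13.8 in WTS-R, 42.5, 27.4 and 19.5 in NS-R, 11.3, 12.6, 3.61 and 15.2 in TS-R and 21.7, 13.6 and 49.4 in NTS-R. Dsp was apart without diabetes and overlapped with it, with a mean of 1.40 (SE 0.36). Kcnj5, a subunit of the atrial potassium channel opened by acetylcholine, gave 1.47 (SE 0.38), Abcc8, the sulfonylurea receptor of the ATP-sensitive potassium channel, 1.44 (SE 0.35), and Rnf207, a RING finger protein of heart muscle, 1.65 (SE 0.46). Fblim1, an adaptor between the cytoskeleton and cell adhesions, gave 0.99 (SE 0.26).

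The Mir208b locus was also among the 27, with a mean log2 fold change of 1.55 (SE 0.47; 1.58 without and 1.52 with diabetes). It lies within the gene of the slow myosin Myh7 on the same strand. Myh7 itself had a mean of -0.03. Mir208b was at a CPM of 0.257, 0.629 and 1.09 in WTS-R, 2.91, 1.5 and 1.5 in NS-R, 0.654, 0.792, 0.169 and 0.427 in TS-R and 1.33, 0.458 and 2.58 in NTS-R. The groups were apart without diabetes and overlapped with it. Reads of an mRNA library over the hairpin do not measure the mature microRNA and may come from the transcript of the host gene. The mature form, from RefSeq (GRCm38.p6, chr14:54975710-54975731, minus strand), is shown with its seed (bases 2 to 8) in capitals.
mmu-miR-208b-3p: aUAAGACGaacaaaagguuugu

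The gene with the smallest p was Car8, which encodes a carbonic anhydrase relative without enzyme activity that binds the IP3 receptor. Car8 was at a CPM of 3.85, 3.84 and 4.44 in WTS-R and 15.9, 17.8 and 8.86 in NS-R. With diabetes it was at a CPM of 3.16, 4.33, 2.43 and 3.90 in TS-R and 6.42, 6.10 and 5.56 in NTS-R. The groups were apart in both states, and NS-R replicates 1 and 2 were the highest of all. Its log2 fold change was 1.81 (SE 0.30) without and 0.81 (SE 0.28) with diabetes, with a mean of 1.31 (SE 0.20, edgeR unadjusted p 2.76e-05, FDR 0.476). Without NS-R replicates 1 and 2 the mean of Car8 was 0.99.

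Pcp4l1, a relative of the calmodulin-binding peptide Pcp4, was also apart in both states. It was at a CPM of 6.93, 6.86 and 12.9 in WTS-R, 33.2, 41.5 and 15.3 in NS-R, 6.85, 9.56, 4.94 and 9.39 in TS-R and 14.2, 11.6 and 21.5 in NTS-R, and its mean log2 fold change was 1.40 (SE 0.28, edgeR FDR 0.726), or 0.93 without NS-R replicates 1 and 2. Inhba encodes the subunit that forms activin A, a ligand of the TGF-beta family. Inhba was at a CPM of 0.898, 0.692 and 0.643 in WTS-R against 3.67, 1.79 and 1.77 in NS-R. With diabetes Inhba was at a CPM of 0.625, 1.10, 0.311 and 0.793 in TS-R against 1.79, 1.37 and 2.34 in NTS-R, with no overlap in either state. Its log2 fold change was 1.70 (SE 0.47) without and 1.40 (SE 0.44) with diabetes, a difference of -0.30 (SE 0.65). Ppp1r1b, the phosphatase inhibitor DARPP-32, and Chmp4c, a subunit of the ESCRT membrane-cutting machinery, were also apart in both states after TMM scaling. Their means were 1.56 (SE 0.36) and 1.16 (SE 0.27). For Chmp4c the margin with diabetes was negligible, at 1.831 CPM in NTS-R replicate 2 against 1.829 CPM in TS-R replicate 4.

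**Figure D2:**
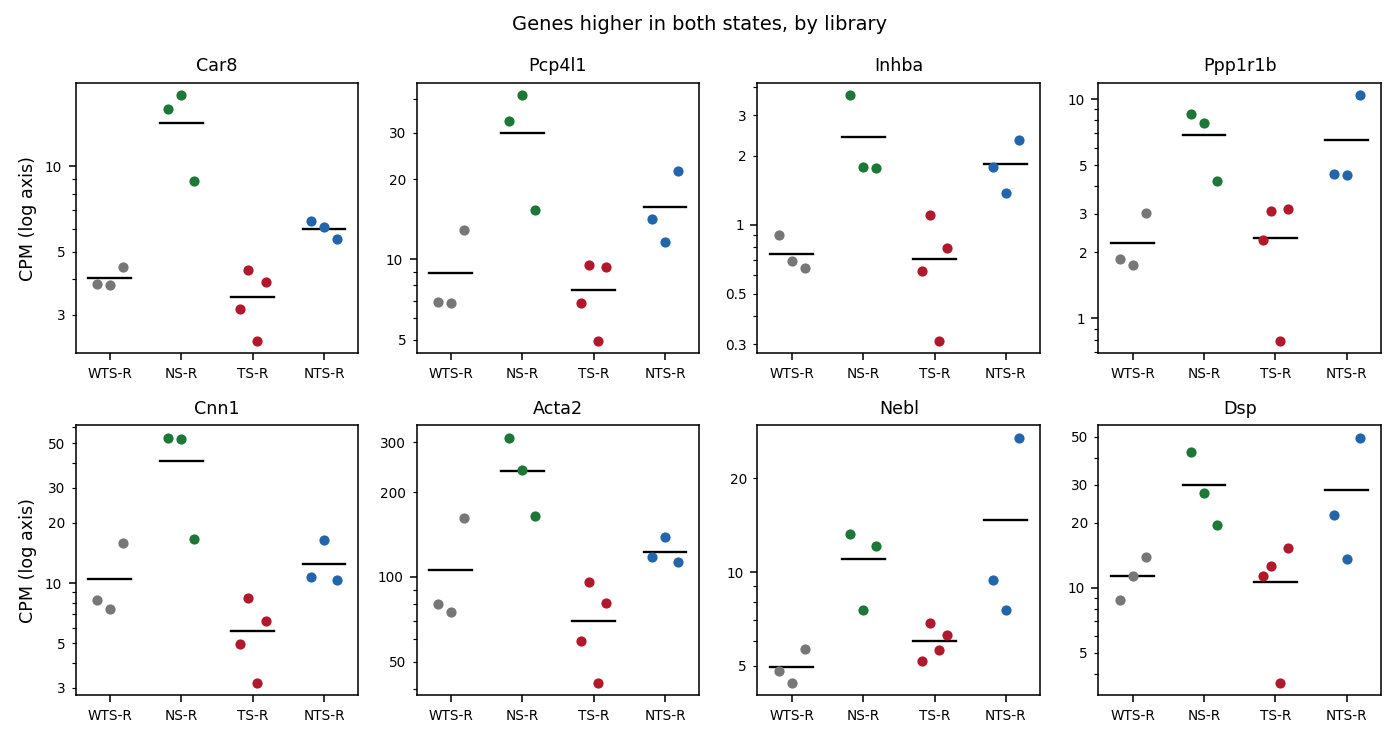
CPM (log axis) of 8 genes higher in both states, in each of the 13 libraries; points are libraries and bars are group means. After TMM scaling, NS-R lies above WTS-R and NTS-R above TS-R without overlap for every gene shown except Dsp, which overlaps with diabetes. Scaled by library total, Cnn1 and Acta2 also overlap in both states, and Pcp4l1 and Nebl with diabetes.

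The rest of the 27 were receptors, ligands and other genes. Ptgfr, the receptor of prostaglandin F2 alpha, gave a mean log2 fold change of 1.11 (SE 0.31), Egf, the epidermal growth factor, 1.09 (SE 0.32; 0.71 without NS-R replicate 1), Angpt2, a vessel-destabilising ligand, 0.64 (SE 0.20), and Ccn3, a matricellular protein, 1.0 (SE 0.29). Perp, a desmosome protein, gave 1.12, Atp8b1, a phospholipid flippase, 0.80, Sds, serine dehydratase, 1.38, Rhobtb1 0.49, Tmem252 0.75 and 1700007K13Rik 3.12. The last was at 3.53 and 11.03 CPM in the airway-rich NS-R replicates 1 and 2 but at 0.204 CPM in NS-R replicate 3, below every WTS-R library. Angpt2 and Tmem252 were apart in both states after TMM scaling. For Angpt2 the margin with diabetes was negligible, with TS-R replicate 2 and NTS-R replicate 2 both at 9.08 CPM. Of the 27 genes, 9 share exonic bases with another gene in GENCODE M21, each on the opposite strand, namely Chmp4c, Dsp, Egf, Fbxl22, Ppp1r1b, Ptgfr, Rhobtb1, Rnf207 and Sds. The strand setting of the counting is not given in the sources used here, so reads of the partners may be mixed into their values. All 27 stayed higher in both states without any single library, and from 9 to 25 of them then kept an unadjusted p under 0.05 in both. The 27 were picked by their p in these same libraries, so the kept sign is largely set by that choice and is no independent check. Without NS-R replicates 1 and 2 together, 25 stayed higher in both and 5 kept that p.

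High values in the airway-rich libraries marked some genes with large folds. The axonemal dynein gene Dnah10 had a mean of 2.61 (SE 0.49) and libraries apart in both states after TMM scaling. With diabetes the margin was slight, 0.983 CPM in NTS-R replicate 1 against 0.932 CPM in TS-R replicate 3. Dnah10 was at 1.77 CPM in NS-R replicate 3 and no more than 2.42 CPM in any library of the other groups. It was at 19.6 and 16.6 CPM in the airway-rich NS-R replicates 1 and 2. A2ml1, a protease inhibitor of epithelia, was at 13.9 and 31.5 CPM in these 2 libraries and no more than 0.763 CPM elsewhere, with a fitted mean of 4.62 (SE 0.93). Without these 2 libraries the mean of Dnah10 was 1.22 and that of A2ml1 2.31. Only 3 of the 16 airway genes were tested, since the others lacked counts in enough libraries, and their median was 6.38 without and 0.06 with diabetes. The level of the airway list was 6.84 and 7.30 in NS-R replicates 1 and 2 and from 0.85 to 1.44 in the other 11 libraries.

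**Figure D3:**
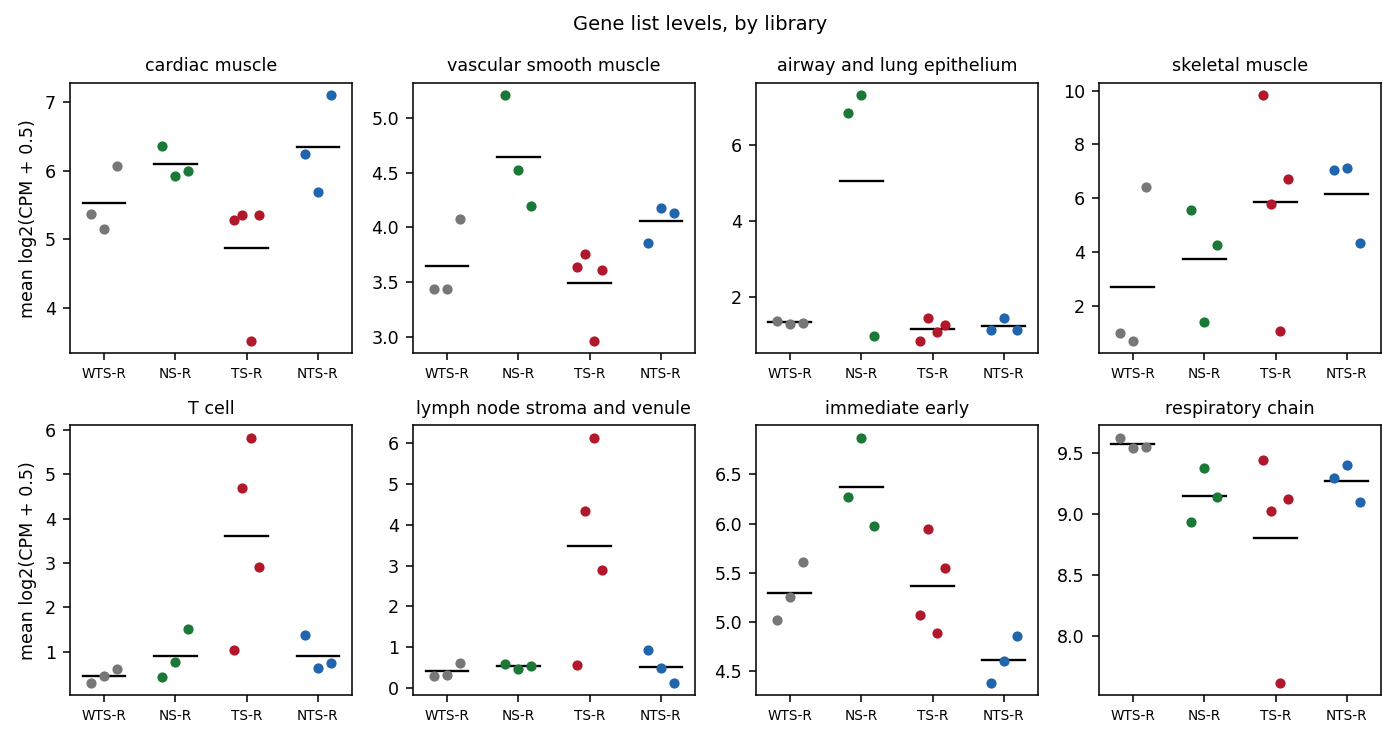
Mean log2(CPM + 0.5) over the tested members of 8 gene lists in each library, by group, with the group mean as a bar. Smooth muscle is highest in NS-R, airway genes stand out in 2 NS-R libraries, and T cell and lymph node genes are high in 3 of 4 TS-R libraries.

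Among the shared genes lower with the knockout, those with the smallest p included immune genes with their highest values in TS-R libraries and smaller fold changes without diabetes. Marco, a scavenger receptor of macrophages, was at a CPM of 0.834, 0.315 and 9.97 in WTS-R and 0.943, 1.73 and 0.954 in NS-R. With diabetes Marco was at a CPM of 2.25, 94.2, 133 and 183.6 in TS-R and 5.15, 0.458 and 0 in NTS-R. The groups overlapped in both states. Its log2 fold change was -1.63 (SE 1.49) without and -5.71 (SE 1.59) with diabetes (mean -3.67, edgeR FDR 0.726). Ighd, the heavy chain of IgD on mature B cells, gave -0.21 and -5.67, Tlr1, a receptor for bacterial lipopeptides, -1.10 and -4.07, Camp, the neutrophil peptide cathelicidin, -0.44 and -6.21, and Gpr18, a receptor of lymphoid cells, -0.70 and -5.59. Without WTS-R replicate 2 the mean for Camp moved from -3.32 to -0.33, and without WTS-R replicate 3 that of Marco moved from -3.67 to -2.33. Pstpip1, an adaptor that binds the inflammasome protein pyrin, gave -0.10 and -2.82. The level of the lymph node list was 4.33, 6.14 and 2.88 in TS-R replicates 2, 3 and 4 and from 0.11 to 0.92 in the other 10 libraries. Marco was highest in TS-R replicate 4, where that level was the lowest of these 3. The part of lymph node tissue in these genes was not tested.

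Among genes whose knockout libraries all lay below in both states, Il22ra2 had the largest difference. It encodes a secreted receptor that traps IL-22. Il22ra2 was at a CPM of 0.321, 1.26 and 0.579 in WTS-R and 0.210, 0.231 and 0.273 in NS-R. With diabetes it was at a CPM of 0.625, 18.2, 86.8 and 1.71 in TS-R and 0.289, 0.458 and 0.161 in NTS-R. NTS-R replicate 3 lay under the 0.242 CPM that a count of 0 allows there. Its fitted mean was -4.02 (SE 1.08, edgeR FDR 0.726). Rab20, a GTPase of endosomes and phagosomes, differed far less. Rab20 was at a CPM of 5.71, 5.79 and 5.66 in WTS-R and 3.90, 5.14 and 4.16 in NS-R. With diabetes Rab20 was at a CPM of 4.07, 4.45, 5.87 and 6.10 in TS-R and 3.53, 2.98 and 2.74 in NTS-R, a mean log2 fold change of -0.55 (SE 0.17). P2ry6, a nucleotide receptor of macrophages that responds to UDP, gave -0.60 without and -0.58 with diabetes (mean -0.59, SE 0.21), and the mean of P2ry6 was -0.36 without WTS-R replicate 3. Others of these genes included Ddx41, Dbr1 and Slc15a4. Armcx6 had the smallest p among shared lower genes, at a mean of -1.02 (SE 0.25), -0.36 without and -1.67 with diabetes.

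T cell, B cell and cell cycle genes had opposite signs in the 2 states. All 22 T cell genes were higher without and lower with diabetes (medians 0.67 and -4.04; median of the mean effect -1.55, or -1.01 without TS-R replicate 3), so 0 of them belong to the shared effect although 13 were lower at an unadjusted p under 0.05 for the mean, as were 3.45% of all genes. The 16 cell cycle genes did likewise, with medians of 0.44 and -2.60, and the median of their mean effect moved from -1.10 to -0.37 without TS-R replicate 3. B cell genes had medians of 0.47 and -4.74, with 2 of 17 of the same sign, and a mean effect of -2.20, or -1.38 without that library. Of the 2 single-state effects, only the fall with diabetes passed an unadjusted p under 0.05 in these 3 lists. It did so for 22 T cell, 16 B cell and 16 cell cycle genes, against 14.1% of all genes. Without diabetes 0 genes of each list were higher at that p, against 4.92%. The T cell list spanned levels of 0.288 to 0.599 among WTS-R libraries, overlapping the NS-R span of 0.438 to 1.501. Plasma cell genes had medians of 3.61 and -2.67, with 1 of 14 of the same sign. NS-R replicate 3 stood apart for them: Igha, a heavy chain of IgA, was at 531.6 CPM there and at 1.68 and 7.79 CPM in NS-R replicates 1 and 2, and without it the median of the mean effect moved from 0.38 to -1.01. It was -0.14 without NTS-R replicate 3 and 1.34 without TS-R replicate 3. Macrophage genes did not have this pattern. Of the 21 macrophage genes, 13 were lower in both states, with medians of -0.15 and -0.48, as were 3354 of all 17270 genes. At an unadjusted p under 0.05, 4 macrophage genes were lower and 1 higher for the mean effect. At that p 0 were lower without diabetes and 8 with it. Their median for the mean effect was -0.49. It shrank to -0.25 when WTS-R replicate 3 was dropped and to -0.29 when TS-R replicate 3 was. T cell and lymph node levels in TS-R replicate 1 were near those of NTS-R.

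**Figure D4:**
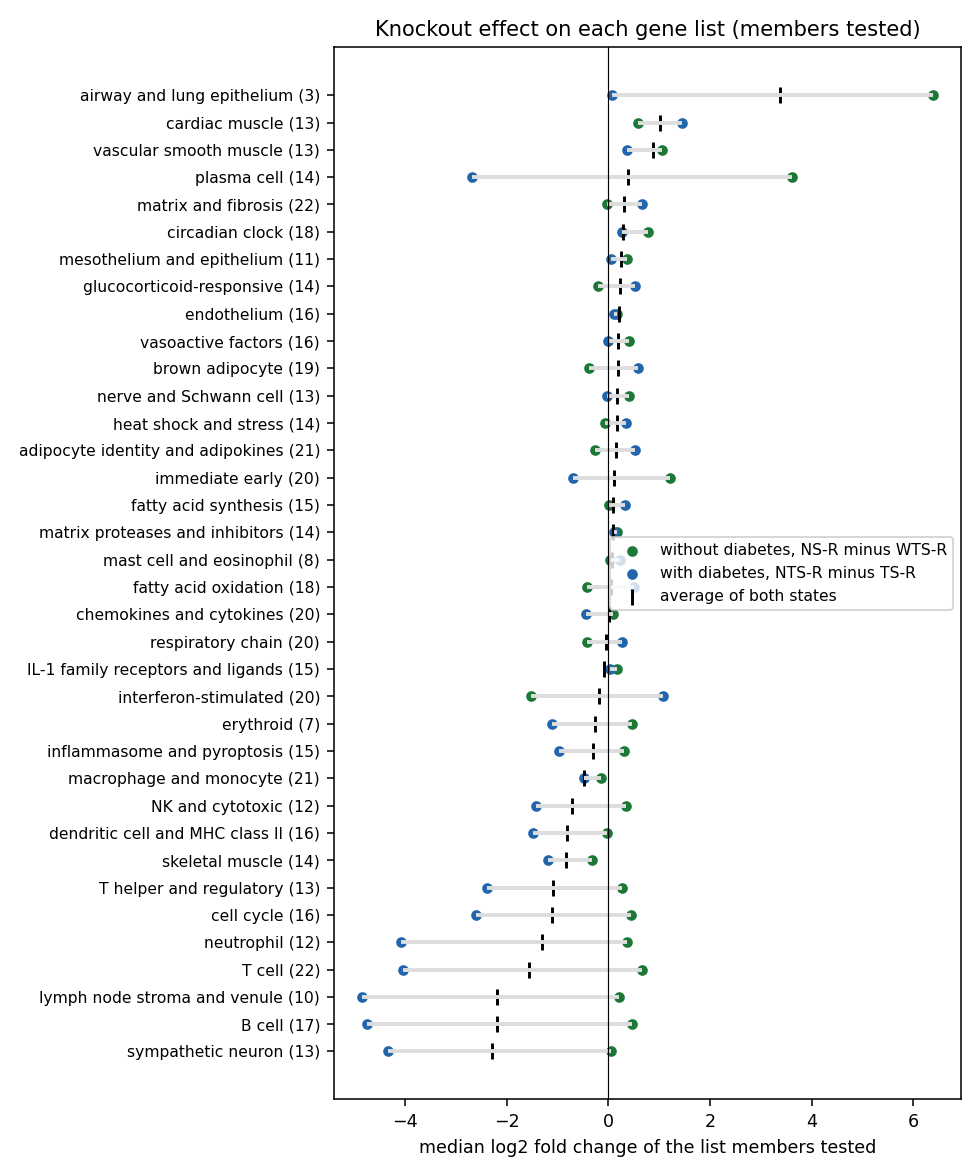
Median log2 fold change of the tested members of each gene list (number in brackets) without diabetes (green), with diabetes (blue) and on average (bar). Cardiac and smooth muscle lie right of 0 in both states, as do other lists, among them circadian clock and endothelium. The T cell, B cell, plasma cell and cell cycle lists lie right of 0 without and left of 0 with diabetes.

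Of the 15 inflammasome genes tested, 14 had a mean effect below 0, with a median of -0.30 (-0.48 without WTS-R replicate 2, -0.55 without NTS-R replicate 1 and -0.155 without TS-R replicate 3). With diabetes 14 were below 0 (median -0.97), 8 of them at an unadjusted p under 0.05, as were 14.1% of all genes. Without diabetes 10 were above 0 (median 0.31). With diabetes the list level spanned 3.27 to 4.49 over TS-R replicates 2, 3 and 4, the libraries with lymph node transcripts. TS-R replicate 1 had a level of 2.74, inside the NTS-R span of 2.425 to 2.891. Whether lymph node tissue accounts for the lower values with diabetes was not tested. The sign was the same in both states for 4 of the 15, all 4 lower, against 37.1% of all genes. At an unadjusted p under 0.05 for the mean effect, 3 were lower (3.45% of all genes were): the sensors Nlrc4 (-1.39, SE 0.52) and Aim2 (-1.27, SE 0.51) and the channel Panx1 (-0.93, SE 0.40). Aim2 and Panx1 had opposite signs in the 2 states. Pycard, the adaptor, gave 0.36 and -1.96, Casp1, the protease, 0.08 and -0.68, Gsdmd, the pore protein, -0.22 and -0.68, and Il18, a cytokine the complex matures, -0.13 and -1.01. The IL-1 family list had 4 of 15 members with the same sign.

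Il1b, the main cytokine of this pathway, went in opposite directions. It was at a CPM of 0.513, 0.566 and 0.900 in WTS-R and 1.86, 3.18 and 2.11 in NS-R. With diabetes Il1b was at a CPM of 1.79, 4.08, 7.17 and 2.93 in TS-R and 0.983, 0.610 and 0.645 in NTS-R. The groups were apart in both states. Its log2 fold change was 1.84 (SE 0.51) without and -2.40 (SE 0.49) with diabetes, which leaves a mean of -0.28 (SE 0.34).

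The early growth response genes Egr3 and Egr2, transcription factors switched on soon after a stimulus, had the same pattern with the smallest p of all genes for the difference between the states. Egr3 was at a CPM of 5.84, 3.65 and 10.6 in WTS-R and 34.4, 18.8 and 30.3 in NS-R. With diabetes it was at a CPM of 14.1, 35.5, 24.3 and 10.4 in TS-R and 0.809, 2.36 and 2.18 in NTS-R. Egr3 gave 2.06 and -3.57 and Egr2 gave 2.36 and -2.93, with an edgeR FDR of 0.0823 for the difference of each. Of the 20 immediate early genes 19 were higher without diabetes, 3 with diabetes and 2 in both, and 7 had an unadjusted p under 0.05 in both states with opposite signs, as did 1.16% of all genes that were higher without and lower with diabetes and 0.0869% in the reverse order. Hid1, a protein of the secretory pathway, Asprv1, a protease of skin, and Stc2, a secreted glycoprotein, were also higher without and lower with diabetes. Ipo4, a nuclear import receptor, Hacd2, an enzyme of fatty acid elongation, and Car13, a carbonic anhydrase, had the reverse order.

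**Figure D5:**
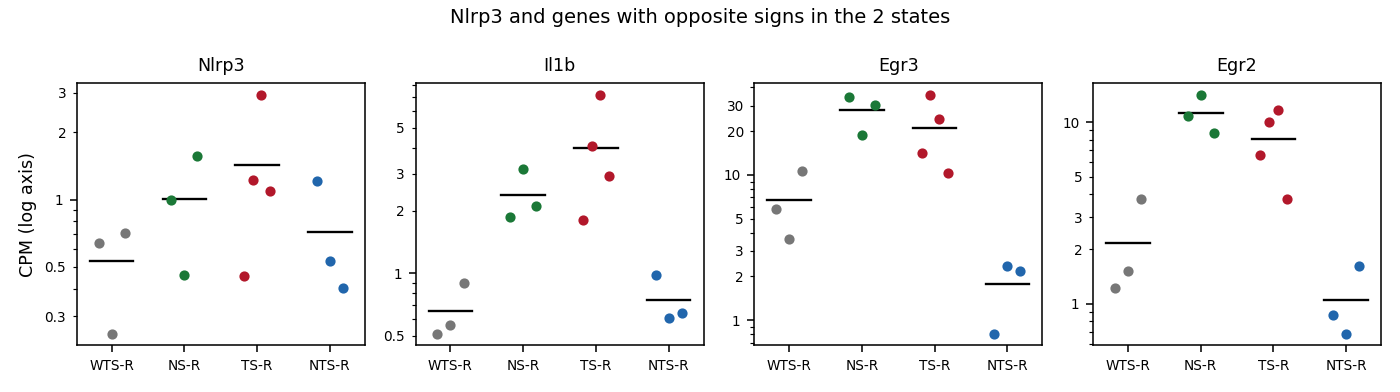
CPM (log axis) of Nlrp3, Il1b, Egr3 and Egr2 in each library, with group means as bars. Il1b, Egr3 and Egr2 are higher in NS-R than WTS-R and lower in NTS-R than TS-R without overlap, while Nlrp3 overlaps in both states.

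Few genes of adipocytes had the same sign in both states. Of 19 brown adipocyte genes, 4 did (37.1% of all genes did), with medians of -0.37 and 0.58. Among these was Prdm16, a regulator of brown fat identity, at 0.42 and 1.09 (mean 0.75, SE 0.27, edgeR FDR 0.726), whereas Ucp1, the uncoupling protein, gave -0.84 and 0.69. Of the 20 genes of the respiratory chain 0 were higher without diabetes and 19 with it (medians -0.41 and 0.27, and the latter is smaller than the shift from scaling by library total). Of the 20 interferon-stimulated genes likewise 0 and 19 were higher (medians -1.53 and 1.07), with 1 WTS-R and 1 NTS-R library far above the rest, at list levels of 7.62 and 7.21 against 5.62 or less. Of the 22 matrix genes 10 were higher in both states, as were 3054 of all 17270 genes, and 4 were higher at an unadjusted p under 0.05 for the mean, against 3.18% of all genes. Ccn2, a matricellular factor of fibrosis, was the largest of these (0.94, SE 0.27), with Col6a3, Postn and Lum between 0.32 and 0.39. Of the vasoactive genes, Ednra, the endothelin receptor of smooth muscle, gave 0.63 (SE 0.22) and was higher in both states. Ptgs2, the inducible cyclooxygenase, gave 2.23 without and -0.06 with diabetes.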

How the data were processed

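RNA of perivascular adipose tissue was sequenced in 13 libraries. The deposited table holds whole-number counts per gene, made by the authors with HISAT2 and featureCounts, per the submitters' processing notes. For the versions, build, annotation and strandedness: not given in the sources used here. Of 34013 genes, 33302 were matched to a symbol, 711 were not, and 21 symbols were shared by more than 1 identifier. Immunoglobulin, actin and other related genes can share reads, so their counts are less certain. No libraries of a group agreed within sampling noise (lowest chi-square per degree of freedom 36).

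All 13 libraries entered 1 edgeR 4.0.16 quasi-likelihood fit of 4 groups in R 4.3.3, with filterByExpr (17270 genes) and TMM scaling. P-values were adjusted by Benjamini-Hochberg over all genes tested. CPM used the TMM-scaled library size. SE is the fold change over the square root of the F statistic. List levels used a pseudocount of 0.5. Nlrp3 was also tested by an exact permutation within states. The fit was tested on simulated data. Alternatives included DESeq2 1.42.0, limma 3.58.1 (voomWithQualityWeights), other scalings and filters, covariates and leaving out libraries.

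The comparison, the gene lists and the naming rule were chosen with earlier results of these data known. The rule takes Nlrp3, then up to 12 shared genes per direction by the smallest p where none passes the FDR, genes at an unadjusted p under 0.05 in both states, up to 6 genes per direction of opposite sign, and up to 4 members per list, with a mean of 1 CPM or more for the genes outside the lists. From these the printed genes, and further members of the lists named with their values, the genes whose libraries were apart, and the sequences, were picked after their values were seen.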

Additional observations from a re-analysis of the deposited data

Results flagged for a closer look

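Libraries were apart in opposite directions for 236 and 177 genes, and 9 of them were named by the rule for printed genes. For these 9 the knockout effect differed in direction between the states. After TMM scaling, every library of the knockout group lay on one side without diabetes and on the other with diabetes. Scaled by library total, Ipo4 and Car13 overlap with diabetes. The fit tested the difference (with minus without diabetes, log2), and none passed an FDR of 0.05 in edgeR. The difference was -5.63 for Egr3, -5.29 for Egr2, -4.24 for Il1b, -3.09 for Stc2, -3.03 for Asprv1 and -2.79 for Hid1, all higher without and lower with diabetes. It was 1.76 for Hacd2, 1.38 for Car13 and 0.98 for Ipo4, which had the reverse order. Egr3 and Egr2 had an edgeR FDR of 0.0823 and Il1b, Stc2, Asprv1 and Hid1 one of 0.115. TS-R replicate 3 stood apart below the other 3 TS-R libraries for Ptprz1 (1.04 CPM). It did so for A2ml1 (0 CPM) too, where the others were at 0.122 to 0.142 CPM and a count of 0 allows up to 0.0847 CPM. Chance alone flags about 1 in 20 groups, and TS-R was the only group with enough libraries for this check.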

How the results depend on the processing

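Of 1352 values of single genes under the alternatives, 1241 kept their sign and side of the FDR threshold, 101 kept their sign and passed it, and 10, all of Nlrp3, changed sign. Nlrp3 was 0.046 with voomWithQualityWeights, 0.10 without the Xist-expressing libraries, 0.19 when the clock level was a covariate and 0.32 without NS-R replicates 1 and 2, and from -0.35 to 0.31 without single libraries. The exact permutation difference of Nlrp3 ran from -0.17 to 0.14 without single libraries.

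Counts of genes past an FDR of 0.05 were 0 in the edgeR fit reported and moved with the method; the cause was not tested. DESeq2 called 39 higher and 6 lower for the mean effect (32 and 4 with a shared sign), 190 higher without diabetes, 196 higher and 1233 lower with diabetes, and 95 positive and 991 negative for the difference between the states. voomWithQualityWeights called none for the mean effect, 14 higher without diabetes, 380 and 1258 with diabetes, and 621 and 1251 for the difference. With no filter on low counts, where 34013 genes were tested, the calls were 137 and 1 without diabetes, 16 and 388 with diabetes, and 1 and 91 for the difference. With sex as a covariate they were 6 higher for the mean effect (4 shared), 101 higher without diabetes and 21 negative for the difference. Without the Xist-expressing libraries they were 125 higher (84 shared), 674 higher without diabetes, and 5 and 396 for the difference. With the clock gene level they were 23 higher without diabetes, and 1 and 167 for the difference. Without single libraries the mean effect had from 0 to 87 genes higher (0 to 68 shared) and 0 to 1 lower. The effect without diabetes had 0 to 503 higher, that with diabetes 0 to 160 higher and 0 to 981 lower, and the difference 0 to 8 positive and 0 to 510 negative. The highest counts came without NS-R replicate 3 or TS-R replicate 1 or 4. The lowest FDR for the mean effect was 0.908 in a model with additive genotype and diabetes terms and 0.422 with genotype alone.

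Genes higher in both states at an unadjusted p under 0.05 numbered 71 with voomWithQualityWeights, 45 with sex as a covariate, 13 with the clock gene level, 13 without NS-R replicates 1 and 2, and 10 to 40 without single libraries. Genes lower in both numbered 3 with DESeq2, 6 with voomWithQualityWeights, 5 with no filter, 2 with sex as a covariate, 1 without the Xist-expressing libraries, 2 without NS-R replicates 1 and 2, and 0 to 4 without single libraries. Genes higher without and lower with diabetes numbered 480 with voomWithQualityWeights, 313 with no filter, 351 with the clock gene level, and 107 to 291 without single libraries. Those of the reverse order numbered 25 with DESeq2, 354 with voomWithQualityWeights, 9 at a mean of 1 CPM or more, 40 without the Xist-expressing libraries, 53 with the clock gene level, and 0 to 75 without single libraries. With no filter 11537 genes had the same sign in both states. Scaling by library total, an alternative chosen after seeing the data, gave 7 and 36 genes with libraries apart and higher or lower in both, and 411 and 20 apart in opposite directions. The counts of genes past an unadjusted p in both states under each alternative were also added then.

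The replicate numbers in the labels were not shown to pair libraries: deviations of same-numbered libraries correlated at a median of 0.02 over 18 pairs (from -0.30 to 0.31), against 0.02 over 45 other pairs. A fit with a replicate block called 11 higher and 65 lower with diabetes, 2 positive and 17 negative for the difference, and gave 30 genes lower without and higher with diabetes at an unadjusted p under 0.05 in both. The median standard error of the mean effect over all genes was 0.24 on the log2 scale.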

Other observations

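Mitochondrially encoded genes, which were on no list and were noticed after their values were seen, were higher with the knockout in both states for 26 of 27 genes tested. The median fitted log2 fold change was 0.87, 0.34 without and 1.36 with diabetes, and 16 had an unadjusted p under 0.05 for the mean effect, 0 without and 17 with diabetes, against 3.18%, 4.92% and 5.59% of all genes higher at this p. As a share of all counts they made up 25.5, 27.1 and 21.1% in WTS-R, 27.8, 22.5 and 36.7% in NS-R, 6.11, 22.7, 15.3 and 22.5% in TS-R and 23.5, 29 and 33.4% in NTS-R. The libraries on both sides overlapped without diabetes, and all 3 NTS-R libraries lay above all 4 TS-R libraries. TS-R replicate 1, the library rich in skeletal muscle, was the lowest. From group means of log2(CPM + 0.5), the median difference was 0.88 with TMM scaling, 0.88 with RLE scaling and 0.75 with scaling by library total, and 24, 24 and 25 of the 27 were higher in both states. The nuclear genes of the respiratory chain had medians of -0.41 without and 0.27 with diabetes, and scaling by library total shifts the latter by -0.30, which takes it below 0.

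Circadian clock genes varied between libraries within groups. The output gene Dbp was at a CPM of 11.2, 4.28 and 3.67 in WTS-R, 14.9, 18.4 and 48.9 in NS-R, 79.4, 90.6, 24.2 and 58.2 in TS-R and 13.4, 98.4 and 60.5 in NTS-R. It was higher in every NS-R library than in every WTS-R library, by 2.10 on the log2 scale (SE 0.73, FDR 0.633 in edgeR), and overlapped with diabetes. Of 18 clock genes, 7 were higher in both states, as were 3054 of all 17270 genes. At an unadjusted p under 0.05 for the mean effect 0 of the 18 were higher or lower, against 3.18% and 3.45% of all genes. The median of their mean effect was 0.28, or 0.17 without NS-R replicate 3, 0.43 without TS-R replicate 1 and 0.55 without NS-R replicates 1 and 2.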
